A study of Homo sapiens with 18 samples.

Results

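The genes described are the 34 genes of cholesterol and fatty acid synthesis and of their control by sterol regulatory element-binding proteins (SREBPs), chosen by gene symbol from a list and found as 34 of the 44016 features in the count table. They were split into a sterol branch of 27 genes and a fatty acid branch of 7. The sterol branch held 6 SREBP regulators, 7 mevalonate enzymes, 11 enzymes that lead to and from squalene towards cholesterol, and 3 genes of sterol transport and uptake control. All 34 were among the 22382 genes with enough reads to be tested. The genes were measured by mRNA sequencing in A549, a human lung adenocarcinoma cell line, in 6 groups of 3 biological replicates. The groups were a stable S100A16 knockdown (KD) after 2 h in 100 µM H2O2, the same S100A16 KD line untreated, a stable hnRNPM KD untreated, a stable MagoHB KD untreated, wild-type (WT) cells after 2 h in 100 µM H2O2, and WT cells untreated. S100A16 is a calcium-binding protein, hnRNPM a nuclear RNA-binding protein that takes part in splicing, and MagoHB one of the proteins deposited on spliced mRNA at exon junctions. The controls were WT cells and no line with a control vector was among the groups, so line derivation and knockdown cannot be told apart. The labels do not say how the knockdowns were made or whether a line was 1 clone. Replicates were labelled biological, with no word on separate cultures, so p-values measure only the spread between these samples.

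SREBPs are transcription factors held in the endoplasmic reticulum membrane by the escort protein SCAP and the INSIG anchors while sterols are plentiful. When sterols fall, SCAP carries them to the Golgi, proteases release their active part, and this part switches on genes of cholesterol synthesis (mainly the SREBF2 product) and of fatty acid synthesis (mainly the SREBF1 product). Many lipogenic tumour cells, lung adenocarcinoma among them, draw on these enzymes for membrane lipids.

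Promoters are shown for 6 members: the regulator SREBF2, its feedback target INSIG1, the sterol enzymes FDPS and MSMO1, and the desaturases SCD and FADS2. Each is the 250 bases before a RefSeq start site on GRCh38.p14, plus strand, written 5′ to 3′. SREBF2 lies at chr22:41832855-41833104, INSIG1 at chr7:155297628-155297877, FDPS at chr1:155308616-155308865, MSMO1 at chr4:165327419-165327668, SCD at chr10:100346983-100347232, and FADS2, at the first of its start sites, at chr11:61815953-61816202. Capitals mark matches on either strand to the sterol regulatory element (SRE) core TCACNCCAC, to the SRE-like letters TCACACGA, and to the CCAAT box (ATTGG on the other strand), the letters bound by NF-Y, a common partner of SREBPs.
SREBF2: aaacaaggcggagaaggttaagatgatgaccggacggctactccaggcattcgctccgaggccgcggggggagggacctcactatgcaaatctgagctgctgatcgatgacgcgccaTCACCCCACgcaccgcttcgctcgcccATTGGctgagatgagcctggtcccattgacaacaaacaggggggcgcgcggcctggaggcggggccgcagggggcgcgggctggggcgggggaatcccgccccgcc
INSIG1: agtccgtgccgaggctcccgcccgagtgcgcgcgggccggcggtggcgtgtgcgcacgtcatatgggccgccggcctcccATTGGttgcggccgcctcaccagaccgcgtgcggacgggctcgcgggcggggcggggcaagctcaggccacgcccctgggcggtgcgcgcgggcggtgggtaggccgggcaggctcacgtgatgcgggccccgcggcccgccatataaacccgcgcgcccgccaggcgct
FDPS: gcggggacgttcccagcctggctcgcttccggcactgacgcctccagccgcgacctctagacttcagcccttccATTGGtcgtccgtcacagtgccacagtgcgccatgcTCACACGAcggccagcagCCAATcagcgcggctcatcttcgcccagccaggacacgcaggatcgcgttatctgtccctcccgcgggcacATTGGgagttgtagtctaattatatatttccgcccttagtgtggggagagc
MSMO1: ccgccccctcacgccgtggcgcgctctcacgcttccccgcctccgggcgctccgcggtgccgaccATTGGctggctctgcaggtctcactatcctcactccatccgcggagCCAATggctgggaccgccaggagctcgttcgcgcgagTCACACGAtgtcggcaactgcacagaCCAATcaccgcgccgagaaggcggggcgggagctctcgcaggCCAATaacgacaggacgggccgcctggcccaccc
SCD: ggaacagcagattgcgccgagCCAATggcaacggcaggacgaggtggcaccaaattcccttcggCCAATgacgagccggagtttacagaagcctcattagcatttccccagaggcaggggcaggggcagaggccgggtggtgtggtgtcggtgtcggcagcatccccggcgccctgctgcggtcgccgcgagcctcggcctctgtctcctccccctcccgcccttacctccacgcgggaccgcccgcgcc
FADS2: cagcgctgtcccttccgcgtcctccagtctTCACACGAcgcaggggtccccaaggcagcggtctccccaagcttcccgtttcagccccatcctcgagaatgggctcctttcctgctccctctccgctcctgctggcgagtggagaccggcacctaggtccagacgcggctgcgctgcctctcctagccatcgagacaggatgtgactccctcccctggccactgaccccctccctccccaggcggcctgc
The RefSeq table matched 30 of the 34 genes, with 40 start sites, and had no entry for ACAT2, FASN, SQLE or FDFT1. Motifs were searched from 250 bases before to 50 bases after each start. The SRE core was found in 1 gene, SREBF2, starting 133 bases before the start site, and in 1.13% of all 35116 promoters of the table. TCACACGA, letters picked after these sequences were seen, was found 140 bases before FDPS, 102 before MSMO1 and 220 before the first FADS2 start, and in 0.234% of all promoters. Of the 40 member promoters, 2.5% held the SRE core and 7.5% TCACACGA. The promoters printed include every one of these matches, with FADS2 at the start that holds one, so they do not represent the list. A CCAAT box was present in 25 of the 40 member promoters, or 62.5%, against 34.6% of all promoters. The GC box GGGCGG was present in 87.5% against 45.0%, and the E-box CACGTG in 15.0% against 7.26%. The SRE core and TCACACGA share their first 4 letters and cannot both match at 1 position. A match is a description of letters and was not tested as a binding site.

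The libraries held 36612997 to 51406431 counts each, and levels below are RPKM (reads per kilobase of exon, scaled to the size of the library) after scaling by edgeR's trimmed mean of M-values (TMM). The targeted genes matched their labels. S100A16 averaged 4.96 ± 0.342 RPKM in S100A16 KD cells and 69.7 ± 1.07 RPKM in WT cells (SD, n = 3 each, log2 fold change -3.81). HNRNPM changed by -2.27 in hnRNPM KD cells and MAGOHB by -1.52 in MagoHB KD cells on the log2 scale, against untreated WT. Some targets also changed in the other lines. MAGOHB changed by -1.17 in hnRNPM KD and -0.62 in S100A16 KD cells, HNRNPM by -0.57 in S100A16 KD and -0.31 in MagoHB KD cells (edgeR adjusted p = 0.000911 and 0.0458), and S100A16 by -0.97 in MagoHB KD cells, while S100A16 in hnRNPM KD cells was at 0.02 and was not called (edgeR adjusted p = 0.867). Of 8 epithelial and A549 markers, 7 reached 1 RPKM in at least 1 library of every group. All 7 alveolar type II markers, SFTPB and SFTPC among them, stayed under 1 RPKM in every library, as did all 7 endothelial markers, 5 of 7 fibroblast markers and at least 8 of 9 leukocyte markers. In these bulk samples fewer cells of a type and less RNA per cell cannot be told apart. There were 3 libraries that stood apart from the other replicates of their group, namely S100A16 KD replicate 1, hnRNPM KD replicate 3 and MagoHB KD replicate 2. Pairs with them differed with a chi-square per degree of freedom of 30.0 to 64.9, against 3.09 to 5.59 for the other pairs.

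In untreated WT cells the members spanned a wide range of levels per length. HMGCS1, the enzyme that makes HMG-CoA at the head of the mevalonate pathway, averaged 166 ± 6.55 RPKM, and SCD, the desaturase that makes oleate, 166 ± 1.76 RPKM (SD, n = 3), both at the 98.7th percentile of the genes tested. These lay within each other's spread. ACLY, which supplies cytosolic acetyl-CoA, and the desaturase FADS1 followed at 92.4 ± 2.75 and 87.8 ± 3.16 RPKM. NSDHL, FASN and FDPS came next at 31.8, 31.7 and 30.3 RPKM and could not be ordered against their spread. The other members lay at 23.7 RPKM or below, and TM7SF2, a sterol reductase, was lowest with 0.384 ± 0.0822 RPKM, at the 25.5th percentile.

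**Figure D1:**
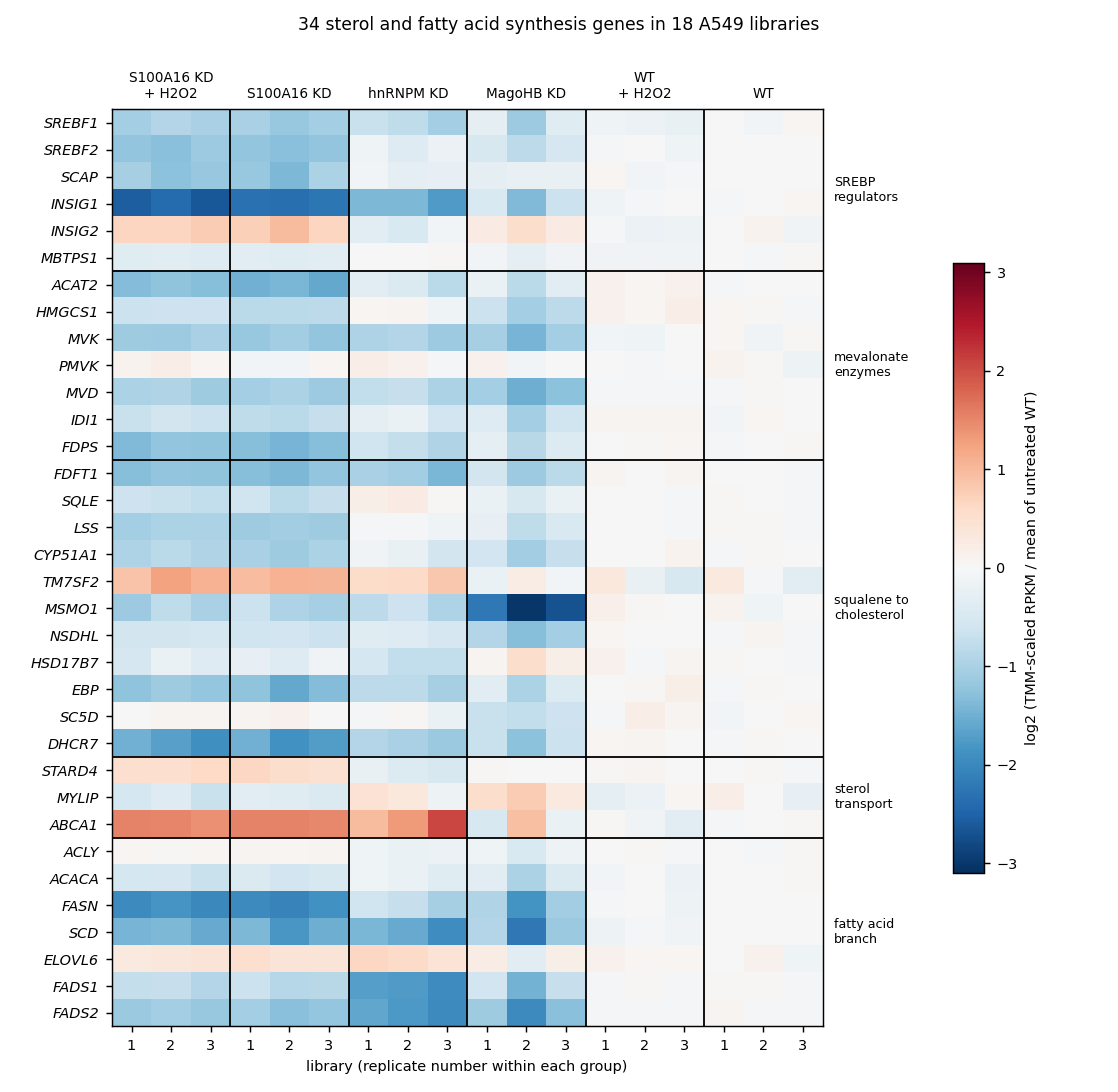
Heat map of the 34 member genes (down the page, by role) in 18 libraries (across, by group and replicate number); colour is the log2 ratio of the TMM-scaled RPKM to the mean of untreated WT. Most sterol and fatty acid genes are blue in the knockdown columns, INSIG2, TM7SF2, STARD4 and ABCA1 are red in the S100A16 KD columns, and the WT columns with H2O2 are nearly white.

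S100A16 KD cells had lower transcript levels for most of the list. Against untreated WT, 24 of the 34 members fell and 5 rose at an adjusted p under 0.05 in edgeR's quasi-likelihood test, where 52.3% of all genes tested were called, 24.8% lower and 27.6% higher. The median log2 fold change of the members was -0.85, against 0.06 for all genes. By branch, 19 of 27 sterol genes fell and 4 rose with a median of -0.88, and 5 of 7 fatty acid genes fell and 1 rose with a median of -0.79. In hnRNPM KD cells 21 members fell and 3 rose, where 49.1% of all genes were called, 23.8% lower and 25.4% higher. The member median there was -0.37, against 0.02 for all genes. In MagoHB KD cells 25 members fell and 2 rose, where 45.5% of all genes were called, 22.3% lower and 23.3% higher, and the member median was -0.57 against 0.04. The branches differed in size of change in the hnRNPM KD line: its 27 sterol genes had a median of -0.36 with 16 lower, and its 7 fatty acid genes a median of -0.77 with 5 lower, a difference described here without a test. In MagoHB KD cells the medians were -0.56 over the sterol branch, with 19 lower, and -0.88 over the fatty acid branch, with 6 lower. The 3 comparisons share the untreated WT libraries, so their counts are not independent of each other. Scaled by total counts alone, which moved the median of all genes up by 0.24, 0.11 and 0.21 in the S100A16, hnRNPM and MagoHB comparisons, 23, 17 and 21 members fell and 8, 6 and 6 rose. Among all genes called, 74.0%, 63.1% and 74.7% were then higher, against 52.7%, 51.6% and 51.1% with TMM. Scaling by total counts called 3231, 4129 and 2789 of the 22382 genes tested lower and 9207, 7058 and 8220 higher.

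**Figure D2:**
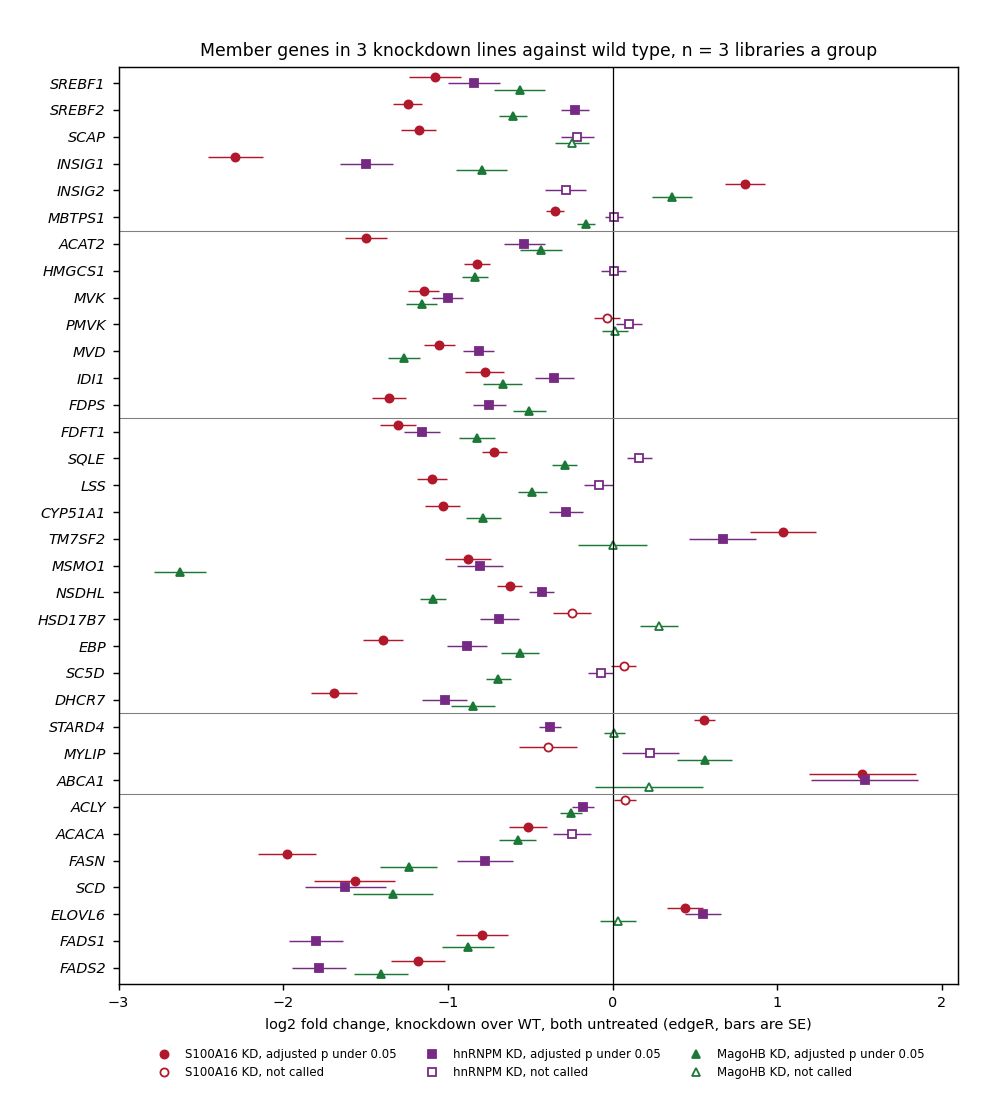
Log2 fold change of each member (down the page, in blocks by role) in S100A16 KD, hnRNPM KD and MagoHB KD cells over untreated WT cells; bars are SE and filled symbols have an edgeR adjusted p under 0.05. Symbols lie mostly left of 0; INSIG1 reaches -2.29 in S100A16 KD and MSMO1 -2.63 in MagoHB KD cells, while ABCA1 lies at 1.52 in S100A16 KD and 1.53 in hnRNPM KD cells.

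Among the 6 regulators, INSIG1 fell furthest in S100A16 KD cells. INSIG1, the anchor whose own gene is switched on by SREBPs, was at 1.24, 1.22 and 1.31 RPKM in untreated S100A16 KD libraries, against 5.91, 6.07 and 6.46 RPKM in untreated WT libraries. The KD level was 20.4% of WT (log2 fold change -2.29 ± 0.17 SE, edgeR adjusted p = 2.05e-09), and the groups were far apart. In hnRNPM KD libraries INSIG1 was at 2.36, 2.36 and 1.83 RPKM, or 35.5% of WT (edgeR adjusted p = 3.39e-07). MagoHB KD libraries held 4.46, 2.37 and 3.85 RPKM, or 57.9% of WT (edgeR adjusted p = 0.00036). Replicate 2 was the low one in MagoHB KD cells, yet every KD library of each line lay below every WT library. Here and for every gene below, the share of all genes whose groups did not overlap was not counted.

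SREBF1, which encodes the SREBP of fatty acid synthesis, was at 4.42, 3.92 and 4.26 RPKM in S100A16 KD cells, 5.50, 5.11 and 4.27 RPKM in hnRNPM KD cells and 7.22, 4.04 and 6.79 RPKM in MagoHB KD cells, against 9.03, 8.41 and 9.21 RPKM in WT cells. The KD groups did not overlap WT, with log2 fold changes of -1.08 ± 0.16, -0.84 ± 0.16 and -0.57 ± 0.16 (SE, edgeR adjusted p = 3.74e-05, 0.000393 and 0.00805). Without MagoHB KD replicate 2 the log2 fold change of SREBF1 was -0.34 (edgeR adjusted p = 0.000673), and with all its libraries it missed the threshold when only the MagoHB KD and WT groups were fitted (edgeR adjusted p = 0.0595). SREBF2, which encodes the SREBP of cholesterol synthesis, was at 1.66, 1.58 and 1.67 RPKM in S100A16 KD cells, against 3.88, 3.85 and 3.91 RPKM in WT cells, a log2 fold change of -1.24 ± 0.09 (SE, edgeR adjusted p = 1.2e-10). In MagoHB KD cells it was at 2.75, 2.2 and 2.72 RPKM (log2 fold change -0.60, edgeR adjusted p = 5.12e-06). In hnRNPM KD cells it was at 3.56, 2.94 and 3.44 RPKM, a call (-0.23, edgeR adjusted p = 0.0295) that was lost when any 1 WT library or hnRNPM KD replicate 2 was left out, with edgeR adjusted p of 0.0558 to 0.166. Among the 30 members with a promoter to search, SREBF2 was the 1 with an SRE core in the window searched. A link between that match and its level was not tested.

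SCAP, the escort, averaged 0.647 ± 0.0948 RPKM in S100A16 KD cells and 1.46 ± 0.0117 RPKM in WT cells (SD, n = 3 each), which is 44.2% of WT (edgeR adjusted p = 7.43e-09). Its values of 1.26 ± 0.0974 RPKM in hnRNPM KD and 1.23 ± 0.0316 RPKM in MagoHB KD cells did not pass the test (edgeR adjusted p = 0.0924 and 0.0549). In MagoHB KD cells SCAP was called lower by DESeq2, by limma voom, with RLE size factors and with halved counts. It also passed there in some fits without 1 library (-0.25, edgeR adjusted p = 0.0416 to 0.0467). In hnRNPM KD cells SCAP passed without hnRNPM KD replicate 1 (-0.28, edgeR adjusted p = 0.0492). MBTPS1, the first Golgi protease to cut SREBPs, was 78.4% of WT in S100A16 KD, 101% in hnRNPM KD and 89.5% in MagoHB KD cells. The S100A16 KD value passed (edgeR adjusted p = 1.69e-05, or 0.0622 when scaled by total counts alone), and the MagoHB KD call of MBTPS1 (edgeR adjusted p = 0.0224) was lost without MagoHB KD replicate 2 (edgeR adjusted p = 0.152) and without WT replicate 3 (edgeR adjusted p = 0.0596). INSIG2, the anchor that does not depend on SREBPs in the same way, went up: 2.03, 2.42 and 1.94 RPKM in S100A16 KD libraries, against 1.21, 1.31 and 1.14 RPKM in WT libraries (log2 fold change 0.80 ± 0.12 SE, edgeR adjusted p = 7.83e-06). The groups did not overlap. INSIG2 was at 1.46, 1.78 and 1.45 RPKM in MagoHB KD cells (0.36, edgeR adjusted p = 0.0192), a call lost without MagoHB KD replicate 2, WT replicate 1 or WT replicate 3 (edgeR adjusted p = 0.12, 0.0563 and 0.0876). In hnRNPM KD cells INSIG2 averaged 0.999 ± 0.139 RPKM, 81.8% of WT, and was not called (edgeR adjusted p = 0.0655). It passed there without hnRNPM KD replicate 3 (-0.40, edgeR adjusted p = 0.0181) or MagoHB KD replicate 2 (-0.28, edgeR adjusted p = 0.0477).

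**Figure D3:**
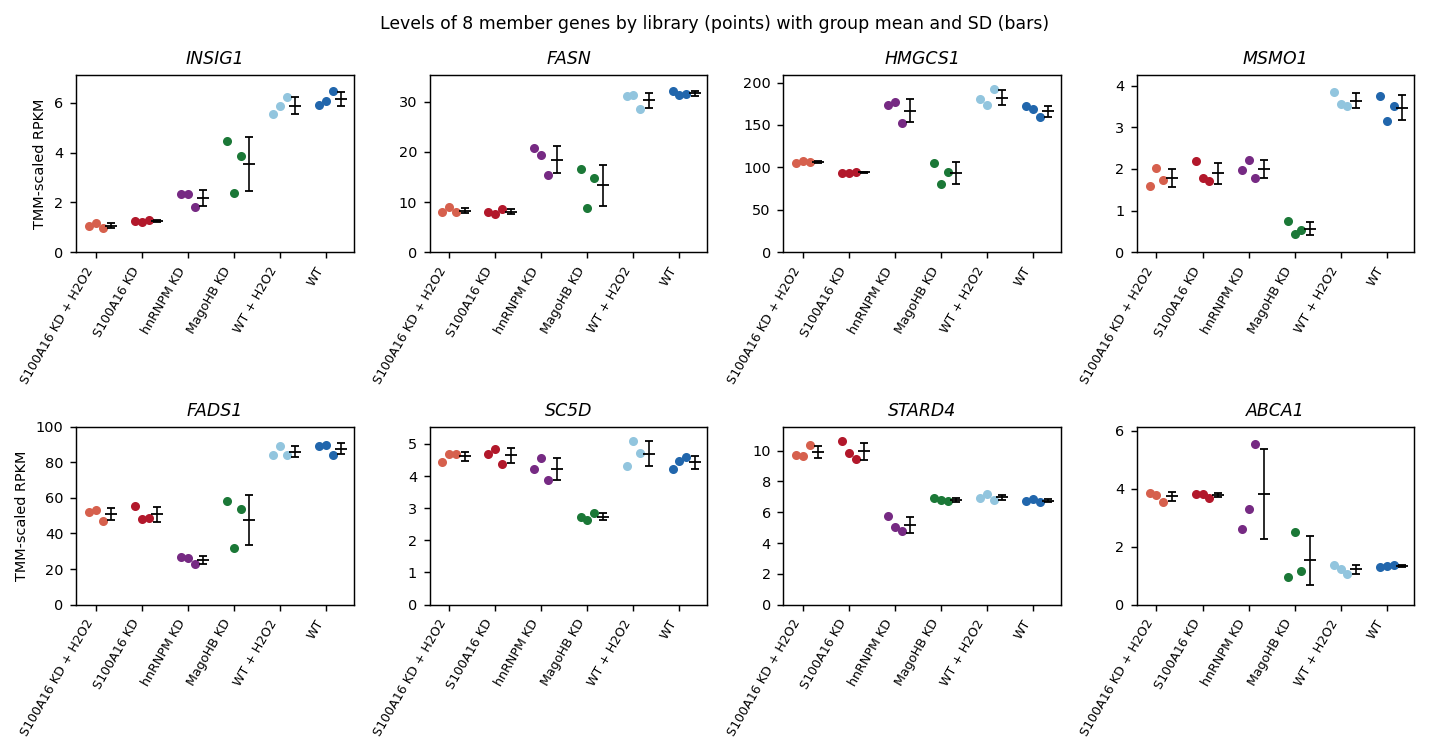
TMM-scaled RPKM (vertical axes, from 0) of 8 member genes in 6 groups; points are libraries, horizontal marks the mean and bars the SD of 3 libraries. INSIG1 and FASN are lowest in the S100A16 KD groups, MSMO1 and SC5D in MagoHB KD cells and FADS1 in hnRNPM KD cells, HMGCS1 in hnRNPM KD cells lies at the WT level, STARD4 is higher in S100A16 KD and lower in hnRNPM KD cells, and ABCA1 is spread widely in the hnRNPM and MagoHB KD groups.

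The mevalonate enzymes turn acetyl-CoA into the isoprenoid farnesyl diphosphate. Of the 7, 6 fell in S100A16 KD, 5 in hnRNPM KD and 6 in MagoHB KD cells, and none rose. Over all genes, 24.8%, 23.8% and 22.3% fell and 27.6%, 25.4% and 23.3% rose in these lines. ACAT2, which joins acetyl-CoA units, averaged 5.59 ± 0.308 RPKM in S100A16 KD cells and 15.8 ± 0.268 RPKM in WT cells (SD, n = 3 each), or 35.4% of WT (edgeR adjusted p = 5.23e-08). In hnRNPM KD and MagoHB KD cells it was 69.0% and 74.0% of WT (edgeR adjusted p = 0.00201 and 0.00933). The MagoHB KD change of ACAT2 was -0.44 on the log2 scale, and -0.27 without MagoHB KD replicate 2 (edgeR adjusted p = 0.0178), and did not pass when scaled by total counts alone (-0.23, edgeR adjusted p = 0.0814). HMGCS1 set the lines apart. It was at 93.8, 93.5 and 95 RPKM in S100A16 KD, 173, 177 and 152 RPKM in hnRNPM KD and 105, 80.0 and 94.5 RPKM in MagoHB KD libraries, against 172, 169 and 159 RPKM in WT libraries. The S100A16 KD and MagoHB KD groups lay well below WT, with log2 fold changes of -0.82 ± 0.08 and -0.84 ± 0.08 (SE, edgeR adjusted p = 1.04e-08 and 1.26e-08). The hnRNPM KD group overlapped WT, with a log2 fold change of 0.01 ± 0.08 (SE, edgeR adjusted p = 0.953).

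MVK, the mevalonate kinase, was 45.1%, 50.0% and 44.9% of WT in S100A16 KD, hnRNPM KD and MagoHB KD cells (edgeR adjusted p = 1.7e-09, 1.34e-08 and 2.13e-09). MVD, the decarboxylase later in the pathway, was 48.2%, 57.0% and 41.6% of WT (edgeR adjusted p = 7.78e-09, 3.4e-07 and 7.01e-10). PMVK, the kinase that acts between these enzymes, was near WT, at 23.1 ± 1.42 RPKM in S100A16 KD, 25.3 ± 2.39 in hnRNPM KD and 23.8 ± 1.67 in MagoHB KD cells, against 23.6 ± 2.16 RPKM in WT cells (SD, n = 3 each, edgeR adjusted p = 0.762, 0.315 and 0.898). Scaled by total counts alone, PMVK was called higher in each line, by 0.21, 0.21 and 0.22 on the log2 scale. FDPS, which makes farnesyl diphosphate and has TCACACGA and 3 CCAAT boxes in the promoter printed above, was 39.1%, 59.5% and 70.4% of WT (edgeR adjusted p = 1.7e-09, 4.24e-06 and 0.000369). IDI1, the isomerase before FDPS, was 58.4%, 78.3% and 63.0% of WT. Its hnRNPM KD call (edgeR adjusted p = 0.0195) was lost without hnRNPM KD replicate 3 (edgeR adjusted p = 0.11) or WT replicate 2 (edgeR adjusted p = 0.0588), and when scaled by total counts alone (-0.24, edgeR adjusted p = 0.0532).

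Next come 11 enzymes from farnesyl diphosphate through squalene to cholesterol. In S100A16 KD cells 8 fell and 1 rose, in hnRNPM KD cells 7 fell and 1 rose, and in MagoHB KD cells 9 fell and none rose. The shares over all genes were 24.8%, 23.8% and 22.3% lower and 27.6%, 25.4% and 23.3% higher. DHCR7, the reductase of the last step, was at 3.06, 2.33 and 2.61 RPKM in S100A16 KD, 4.59, 4.29 and 3.86 RPKM in hnRNPM KD and 5.37, 3.54 and 5.46 RPKM in MagoHB KD libraries, against 8.31, 8.80 and 8.71 RPKM in WT libraries. No KD library of DHCR7 reached a WT one, and the log2 fold changes were -1.69, -1.02 and -0.85 (edgeR adjusted p = 1.44e-08, 5.99e-06 and 5.41e-05). MSMO1, the methyl oxidase that starts removal of the methyl groups at carbon C4, was at 0.746, 0.429 and 0.531 RPKM in MagoHB KD libraries, against 3.76, 3.16 and 3.50 RPKM in WT libraries. That is 16.4% of WT (log2 fold change -2.63 ± 0.16 SE, edgeR adjusted p = 1.43e-11), with wide separation. In S100A16 KD and hnRNPM KD cells MSMO1 was 54.6% and 57.4% of WT (edgeR adjusted p = 1.82e-05 and 5.7e-05). NSDHL, the dehydrogenase that works with MSMO1, was 64.9%, 74.3% and 47.0% of WT in the S100A16, hnRNPM and MagoHB lines (edgeR adjusted p = 5.12e-07, 6.51e-05 and 1.86e-10). SC5D, the desaturase near the end of the pathway, averaged 2.74 ± 0.11 RPKM in MagoHB KD cells and 4.43 ± 0.2 RPKM in WT cells (SD, n = 3 each, edgeR adjusted p = 1.68e-07). It was at 105% and 95.2% of WT in S100A16 KD and hnRNPM KD cells and was not called there (edgeR adjusted p = 0.471 and 0.448), though the S100A16 KD value was called higher when scaled by total counts alone (0.30, edgeR adjusted p = 0.00147).

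SQLE, the oxygenase that is a rate-limiting step of sterol synthesis, was at 10.0, 8.55 and 9.25 RPKM in S100A16 KD, 17.3, 18.2 and 15.7 RPKM in hnRNPM KD and 13.3, 10.9 and 13.2 RPKM in MagoHB KD libraries, against 15.6, 15.5 and 14.6 RPKM in WT libraries. It was below every WT library in S100A16 KD and MagoHB KD cells (log2 fold change -0.72 and -0.29, edgeR adjusted p = 6.9e-08 and 0.0032), the MagoHB KD call being lost with scaling by total counts alone (edgeR adjusted p = 0.295). In hnRNPM KD cells it was above every WT library, at 112% of WT, and did not pass the test (edgeR adjusted p = 0.0802), though it did without hnRNPM KD replicate 3 (0.22, edgeR adjusted p = 0.0235). LSS, which closes the sterol rings, was 46.8% of WT in S100A16 KD and 71.4% in MagoHB KD cells (edgeR adjusted p = 1.76e-09 and 0.000121), and 94.3% in hnRNPM KD cells, where it was not called (edgeR adjusted p = 0.455). FDFT1, the squalene synthase, was 40.5%, 44.9% and 56.5% of WT, and EBP, the sterol isomerase, 38.1%, 54.2% and 67.9%, in the S100A16, hnRNPM and MagoHB lines. All 6 of these values passed, with edgeR adjusted p of 0.000456 for EBP in MagoHB KD cells as the least small. CYP51A1, the lanosterol demethylase, was 48.9%, 82.1% and 58.2% of WT. Its hnRNPM KD call (-0.29 on the log2 scale, edgeR adjusted p = 0.0277) was lost without hnRNPM KD replicate 3 (-0.16, edgeR adjusted p = 0.156), when scaled by total counts alone (-0.17, edgeR adjusted p = 0.114), or without WT replicate 2 (edgeR adjusted p = 0.0715) or WT replicate 3 (edgeR adjusted p = 0.0577).

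TM7SF2 and HSD17B7, also of the late pathway, did not follow that direction in every line. TM7SF2, a sterol C14 reductase, was at 0.740, 0.817 and 0.801 RPKM in S100A16 KD and 0.568, 0.579 and 0.681 RPKM in hnRNPM KD libraries, against 0.471, 0.373 and 0.307 RPKM in WT libraries. It rose at low levels in both lines without overlap (log2 fold change 1.03 ± 0.20 and 0.67 ± 0.21 SE, edgeR adjusted p = 0.000167 and 0.00956), and its hnRNPM KD call was lost without WT replicate 3 (edgeR adjusted p = 0.0614). In MagoHB KD cells TM7SF2 was at 99.6% of WT. HSD17B7, the ketoreductase that works beside NSDHL, was 62.0% of WT in hnRNPM KD cells (edgeR adjusted p = 6.34e-05). It was 84.3% in S100A16 KD and 121% in MagoHB KD cells, neither called (edgeR adjusted p = 0.0859 and 0.0526). HSD17B7 passed in S100A16 KD cells with only the groups compared, and in MagoHB KD cells by limma voom and with halved counts. Its counts are uncertain because a near-identical pseudogene copy may take reads. Overlapping genes limit some other members too, since strand use in counting was not stated. CYP51A1 shares 78.82% of its exon bases with LRRD1 on the same strand, and ACAT2 43.03% with SOD2 on the opposite strand. FDPS, IDI1 and HMGCS1 share 18.64%, 17.92% and 14.95% with antisense genes.

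Of the 3 genes of sterol transport and uptake control, ABCA1 and STARD4 rose in S100A16 KD cells. ABCA1, the pump that exports cholesterol and is switched on by the oxysterol receptors LXR, was at 3.83, 3.82 and 3.69 RPKM in S100A16 KD libraries, against 1.28, 1.34 and 1.35 RPKM in WT libraries (log2 fold change 1.52 ± 0.33 SE, edgeR adjusted p = 0.00161). In hnRNPM KD libraries it was at 2.59, 3.31 and 5.54 RPKM (1.53 ± 0.33 SE, edgeR adjusted p = 0.00167). All 6 of these KD libraries lay above WT, and hnRNPM KD replicate 3 was the highest of all. MagoHB KD libraries held 0.938, 2.51 and 1.15 RPKM of ABCA1, a group that lay on both sides of WT and was not called (0.22 ± 0.33 SE, edgeR adjusted p = 0.618). Without the 3 libraries that stood apart, ABCA1 was at 1.49 in S100A16 KD, 1.15 in hnRNPM KD and -0.33 in MagoHB KD cells on the log2 scale (edgeR adjusted p = 1.55e-12, 4.38e-10 and 0.0151).

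STARD4, a carrier of cholesterol between membranes and an SREBP target, went in opposite directions in 2 lines. It was at 10.6, 9.85 and 9.45 RPKM in S100A16 KD, 5.76, 5.01 and 4.79 RPKM in hnRNPM KD and 6.94, 6.77 and 6.72 RPKM in MagoHB KD libraries, against 6.75, 6.89 and 6.64 RPKM in WT libraries. The S100A16 KD group was above WT (log2 fold change 0.56, edgeR adjusted p = 2.65e-07), the hnRNPM KD group below (-0.38, edgeR adjusted p = 5e-05), and the MagoHB KD group overlapped WT (0.01, edgeR adjusted p = 0.907). MYLIP, a ubiquitin ligase that lowers lipoprotein uptake and is another LXR target, was at 1.34, 1.60 and 1.15 RPKM in MagoHB KD cells, against 1.07, 0.922 and 0.780 RPKM in WT cells. This rise (0.56, edgeR adjusted p = 0.00974) was lost without MagoHB KD replicate 2 (edgeR adjusted p = 0.0608) or WT replicate 3 (edgeR adjusted p = 0.0654). MYLIP was 76.2% of WT in S100A16 KD and 118% in hnRNPM KD cells, with neither called (edgeR adjusted p = 0.0687 and 0.287). In S100A16 KD cells it passed with only the groups compared and without WT replicate 3 (-0.52, edgeR adjusted p = 0.0316).

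In the fatty acid branch, FASN, the synthase that builds palmitate, fell furthest in S100A16 KD cells. It was at 8.02, 7.58 and 8.59 RPKM in S100A16 KD, 20.8, 19.3 and 15.5 RPKM in hnRNPM KD and 16.6, 8.84 and 14.9 RPKM in MagoHB KD libraries, against 32.2, 31.3 and 31.6 RPKM in WT libraries. The KD levels were 25.4%, 58.5% and 42.4% of WT with no overlap (log2 fold change -1.98 ± 0.18, -0.77 ± 0.17 and -1.24 ± 0.17 SE, edgeR adjusted p = 3.82e-07, 0.00176 and 4.43e-05). SCD was at 63.0, 47.6 and 57.7 RPKM in S100A16 KD, 62.0, 56.1 and 44.0 RPKM in hnRNPM KD and 87.9, 35.8 and 74.2 RPKM in MagoHB KD libraries, against 166, 164 and 168 RPKM in WT libraries. All 9 KD libraries were far under WT, with log2 fold changes of -1.57, -1.62 and -1.33 (edgeR adjusted p = 0.000124, 0.000104 and 0.000588). Without the 3 libraries that stood apart the SCD value in MagoHB KD cells was -1.03 (edgeR adjusted p = 4.7e-07).

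The desaturases FADS1 and FADS2, which make long polyunsaturated fatty acids and lie side by side on chromosome 11, fell furthest in hnRNPM KD cells. FADS1 was at 26.8, 26.0 and 22.8 RPKM in hnRNPM KD libraries, against 89.5, 89.7 and 84.1 RPKM in WT libraries, or 28.7% of WT (log2 fold change -1.80 ± 0.16 SE, edgeR adjusted p = 3.13e-07). FADS2, whose first promoter is printed above, was at 7.82, 6.85 and 6.05 RPKM in hnRNPM KD, 11.4, 9.59 and 10.4 RPKM in S100A16 KD and 11.1, 6.02 and 9.73 RPKM in MagoHB KD libraries, against 25, 23.1 and 23.0 RPKM in WT libraries. Every KD library of FADS2 was less than the lowest WT one (edgeR adjusted p = 4.99e-07, 2.42e-05 and 6.86e-06). FADS1 was 57.8% of WT in S100A16 KD and 54.5% in MagoHB KD cells (edgeR adjusted p = 0.000656 and 0.000379). FADS1 and FADS2 share 490 exon bases on opposite strands, under 5% of either gene.

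ACACA, the acetyl-CoA carboxylase that commits carbon to fatty acids, was 70.1%, 84.4% and 67.1% of WT in the S100A16, hnRNPM and MagoHB lines and passed in the S100A16 and MagoHB lines (edgeR adjusted p = 0.00106 and 0.0005, against 0.0847 in hnRNPM KD cells). In hnRNPM KD cells ACACA passed without MagoHB KD replicate 2 (-0.25, edgeR adjusted p = 0.00119) and without the 3 libraries that stood apart. It passed there too with only the groups compared or with no filter on low counts. ACLY was at 106% of WT in S100A16 KD cells, not called (edgeR adjusted p = 0.352) but called higher when scaled by total counts alone (0.31, edgeR adjusted p = 0.000128), and at 88.4% in hnRNPM KD and 83.8% in MagoHB KD cells (edgeR adjusted p = 0.0338 and 0.00376). The hnRNPM KD call of ACLY was lost when any 1 of 4 libraries was left out, namely hnRNPM KD replicates 2 and 3 and WT replicates 1 and 3 (edgeR adjusted p = 0.0552 to 0.103). In MagoHB KD cells the ACLY value of -0.26 on the log2 scale was -0.16 without replicate 2 (edgeR adjusted p = 0.0155), and the call was lost when scaled by total counts alone (-0.05, edgeR adjusted p = 0.51) or with only the groups compared in the fit (-0.25, edgeR adjusted p = 0.0659). ELOVL6, which lengthens palmitate to stearate, was the fatty acid gene that rose. It was at 4.54, 4.34 and 3.87 RPKM in hnRNPM KD and 4.18, 3.8 and 3.83 RPKM in S100A16 KD libraries, against 2.86, 3.19 and 2.66 RPKM in WT libraries (log2 fold change 0.55 and 0.44, edgeR adjusted p = 0.000292 and 0.00205). Both groups were above WT, while MagoHB KD cells held 3.39, 2.26 and 3.29 RPKM (log2 fold change 0.04, edgeR adjusted p = 0.823). Without MagoHB KD replicate 2 the ELOVL6 value in MagoHB KD cells was 0.20 and passed (edgeR adjusted p = 0.0424), as it did when scaled by total counts alone (0.24, edgeR adjusted p = 0.0474).

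**Figure D4:**
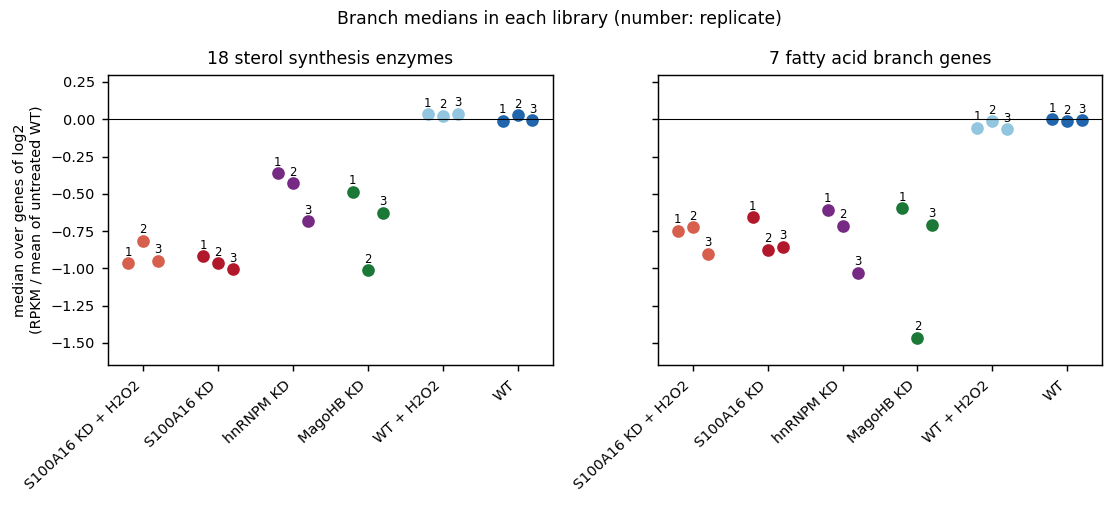
Median log2 ratio to the mean of untreated WT (vertical axis) over the 18 sterol synthesis enzymes (left) and the 7 fatty acid branch genes (right) in each library; numbers are replicates. MagoHB KD replicate 2 lies at -1.01 and -1.47, below the other MagoHB KD libraries, and hnRNPM KD replicate 3 is lowest of its group.

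The libraries that stood apart did so for these genes as well. MagoHB KD replicate 2 was the lowest of its group for 27 of 34 members, all 7 fatty acid genes included, where the same library was lowest for 39.6% of all genes tested. Over the 7 fatty acid genes its median log2 ratio to WT was -1.47, against -0.60 and -0.71 in the other MagoHB KD libraries. hnRNPM KD replicate 3 was the lowest for 27 members, or 79.4%, against 39.0% of all genes. In S100A16 KD replicate 1, 15 of 34 members were highest of the group and 2 lowest. Over all genes, that library was highest for 7143 of 22382 and lowest for 35.4%. Without these 3 libraries 26 members fell and 5 rose in S100A16 KD, 23 fell and 6 rose in hnRNPM KD and 25 fell and 2 rose in MagoHB KD cells. Over all genes this fit called 27.4% lower and 28.5% higher, 25.5% lower and 26.0% higher, and 23.0% lower and 22.3% higher in the S100A16, hnRNPM and MagoHB lines. The member medians were then -0.95, -0.36 and -0.40, so the direction of the list was kept in each line and the MagoHB value was smaller. What set these libraries apart was not tested.

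The S100A16 KD line was also compared with WT under H2O2, in libraries separate from the untreated ones. There 25 members fell and 5 rose, where 52.5% of all genes were called, 24.7% lower and 27.9% higher. All 29 members called in untreated cells were called in the same direction under H2O2. They made up 29 of the 30 members called under H2O2. Over all genes, 83.7% of the untreated calls were called in the same direction under H2O2, and 83.4% of the H2O2 calls in untreated cells. INSIG1 was at 1.04, 1.18 and 0.991 RPKM in S100A16 KD cells with H2O2, against 5.57, 5.87 and 6.25 RPKM in WT cells with H2O2 (log2 fold change -2.46 ± 0.17 SE, edgeR adjusted p = 1.09e-09). FASN was at 8.06, 8.95 and 7.94 RPKM in S100A16 KD cells with H2O2, against 31.1, 31.4 and 28.5 RPKM in WT cells with H2O2, and DHCR7 at 3.04, 2.68 and 2.29 RPKM, against 8.99, 9.12 and 8.54 RPKM. SCD and SREBF2 were 39.0% and 44.8% of WT under H2O2. The groups again lay apart for these 5 genes, and the share of all genes without overlap was not counted. ABCA1 was at 3.84, 3.79 and 3.54 RPKM in S100A16 KD cells with H2O2, against 1.36, 1.23 and 1.04 RPKM in WT cells with H2O2 (1.62 ± 0.33 SE, edgeR adjusted p = 0.0011). TM7SF2 was again higher, at 0.707, 0.913 and 0.807 RPKM in S100A16 KD cells with H2O2, against 0.482, 0.330 and 0.274 RPKM in WT cells with H2O2. INSIG2 was at 1.93, 1.93 and 2.11 RPKM in S100A16 KD cells with H2O2, against 1.19, 1.07 and 1.10 RPKM in WT cells with H2O2. Neither gene's groups overlapped. HSD17B7 was called in addition (74.4% of WT, edgeR adjusted p = 0.00493), but not when scaled by total counts alone (-0.24, edgeR adjusted p = 0.114). ELOVL6, at 120% of WT, passed only just (edgeR adjusted p = 0.05 after rounding). It was not called by DESeq2, by limma voom, with RLE size factors, with the replicate number as a block, with the counts halved or in 14 of the 18 fits that left out 1 library, where its log2 fold change was 0.23 to 0.29. The log2 fold changes of the members in the 2 settings differed by 0.09 at the median and by 0.27 at most, for SREBF1.

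H2O2 itself gave no call among the members. In S100A16 KD cells their log2 fold changes, H2O2 over untreated, lay between -0.23 and 0.22 with 0 of 34 called, where 0.0134% of all genes were called, all of them lower. In WT cells they lay between -0.18 and 0.13 with 0 of 34 called, where 0.223% of all genes were called, 0.147% higher and 0.076% lower. DESeq2 and limma voom also called none in either line. At an unadjusted edgeR p under 0.05, 1 of 34 members passed in S100A16 KD and 0 of 34 in WT cells, against 6.77% and 6.6% of all genes. The member with an unadjusted p under 0.05 was HMGCS1, at 105, 107 and 106 RPKM in S100A16 KD cells with H2O2, against 93.8, 93.5 and 95 RPKM in untreated S100A16 KD cells (log2 fold change 0.17 ± 0.08 SE, edgeR adjusted p = 0.723). These groups did not overlap, and HMGCS1 was also at 181, 174 and 192 RPKM in WT cells with H2O2, against 172, 169 and 159 RPKM in untreated WT cells. In WT cells the smallest unadjusted p was that of MBTPS1 (log2 fold change -0.10 ± 0.06 SE, edgeR adjusted p = 0.799). SREBF1 was at 8.03, 7.89 and 7.56 RPKM in WT cells with H2O2, against 9.03, 8.41 and 9.21 RPKM in untreated WT cells, without overlap (-0.18 ± 0.16 SE, edgeR adjusted p = 0.929). HMGCS1 and SREBF1 were picked from the list, and the share of all genes without overlap was not counted.

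These few values depended on which libraries set the spread. Fitted on the groups compared alone, HMGCS1 was called higher in both lines and SREBF1 lower in WT cells. These fits also called more of all 22382 genes. In WT cells 292 were higher and 243 lower, and in S100A16 KD cells 487 were higher and 317 lower. The fit on all 18 libraries called 33 higher and 17 lower in WT cells, and 0 higher and 3 lower in S100A16 KD cells. The interaction, which asks whether H2O2 acted differently in S100A16 KD and in WT cells, called 0 of 34 members where 0.0938% of all genes were called, 0.0179% higher and 0.076% lower. At an unadjusted edgeR p under 0.05 it had 0 of 34 members against 5.07% of all genes, and DESeq2 and limma voom called none.

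**Figure D5:**
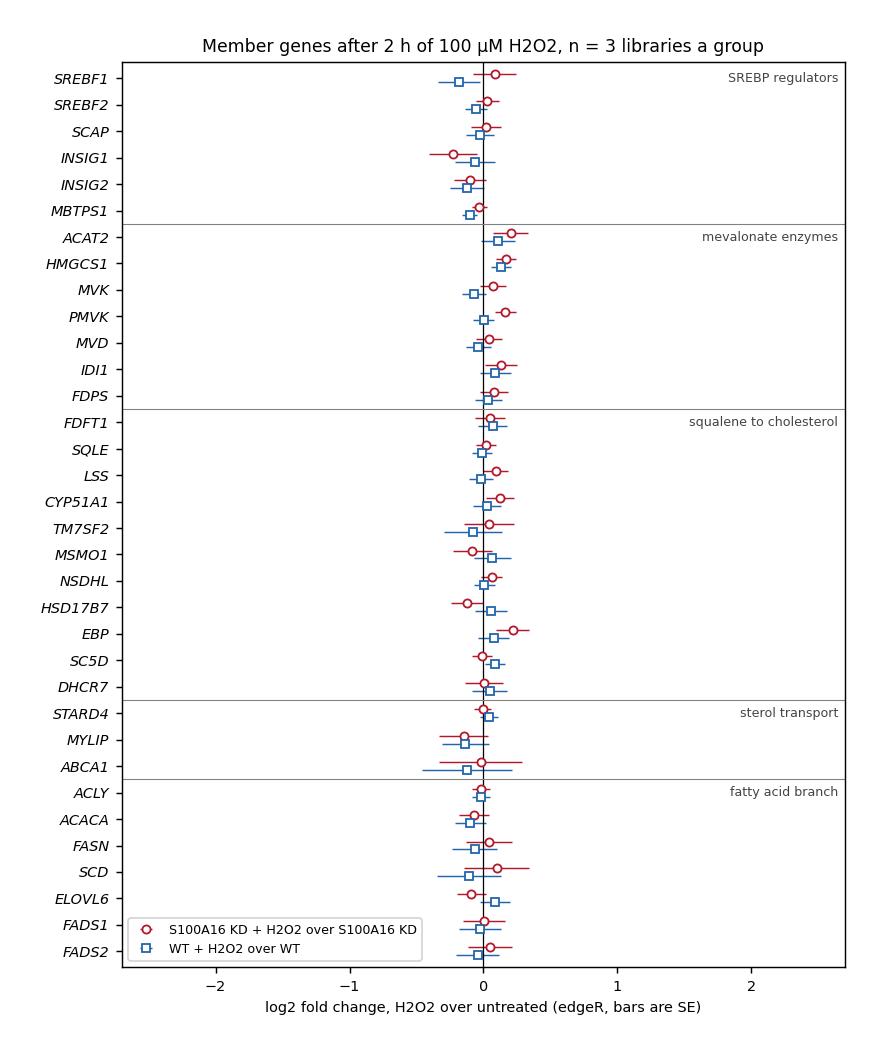
Log2 fold change of each member (down the page, in blocks by role), H2O2 over untreated, in S100A16 KD and in WT cells; bars are SE, and no value has an edgeR adjusted p under 0.05. The axis spans the range of the knockdown effects, and all values lie between -0.23 and 0.22.

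The knockdown lines were then compared with each other, all untreated. S100A16 KD cells had 17 members lower and 6 higher than hnRNPM KD cells, where 48.8% of all genes were called, 24.2% lower and 24.6% higher. The sterol branch held 16 of the 17 lower genes. FASN was at 8.02, 7.58 and 8.59 RPKM in S100A16 KD libraries, against 20.8, 19.3 and 15.5 RPKM in hnRNPM KD libraries, the largest of these falls (log2 fold change -1.20 ± 0.17 SE, edgeR adjusted p = 4.31e-05). SREBF2 followed at -1.02 (edgeR adjusted p = 1.85e-09), with the levels given above. LSS was at 1.82, 1.85 and 1.83 RPKM in S100A16 KD libraries, against 3.81, 3.73 and 3.55 RPKM in hnRNPM KD libraries (-1.01, edgeR adjusted p = 4.36e-09). The rises were led by INSIG2 with 2.03, 2.42 and 1.94 RPKM in S100A16 KD libraries, against 0.958, 0.884 and 1.15 RPKM in hnRNPM KD libraries (1.09 ± 0.12 SE, edgeR adjusted p = 1.31e-07). FADS1 came next, at 55.7, 47.9 and 48.6 RPKM in S100A16 KD libraries, or 201% of the hnRNPM KD level, and then STARD4 at 192% (edgeR adjusted p = 8.28e-05 and 6.68e-11). The groups of these 6 genes, picked for the size of their change, did not overlap, and the share of all genes without overlap was not counted. SCD and ABCA1, which moved by like amounts against WT, differed by 0.06 ± 0.24 and -0.01 ± 0.31 (SE) on the log2 scale between the 2 lines and were not called. For ABCA1 the sign was the other way without the 3 libraries that stood apart (0.34, edgeR adjusted p = 0.00589).

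Against MagoHB KD cells, S100A16 KD cells had 15 members lower and 9 higher, where 44.8% of all genes were called, 21.7% lower and 23.2% higher. INSIG1 was at 1.24, 1.22 and 1.31 RPKM in S100A16 KD libraries, against 4.46, 2.37 and 3.85 RPKM in MagoHB KD libraries (log2 fold change -1.50 ± 0.17 SE, edgeR adjusted p = 5.37e-07). ACAT2 was at 5.59, 5.89 and 5.27 RPKM in S100A16 KD libraries, against 13.6, 8.84 and 12.5 RPKM in MagoHB KD libraries (-1.06, edgeR adjusted p = 3.03e-06). MYLIP was at 0.729, 0.709 and 0.676 RPKM in S100A16 KD libraries, against 1.34, 1.60 and 1.15 RPKM in MagoHB KD libraries (-0.95, edgeR adjusted p = 9.15e-05). The groups of these 3 genes, picked for the size of their change, did not overlap, and the share of all genes without overlap was not counted. All 6 regulators were called, 5 lower and INSIG2 higher. The SREBF1 call (-0.52, edgeR adjusted p = 0.0146) was lost without S100A16 KD replicate 2, MagoHB KD replicate 1 or MagoHB KD replicate 3 (edgeR adjusted p = 0.053, 0.079 and 0.065). MSMO1 stood the other way, at 2.19, 1.78 and 1.71 RPKM in S100A16 KD libraries, against 0.746, 0.429 and 0.531 RPKM in MagoHB KD libraries (1.75 ± 0.16 SE, edgeR adjusted p = 6.39e-09). ABCA1, TM7SF2, SC5D and NSDHL were higher in S100A16 KD cells too, at 247%, 206%, 170% and 138% of the MagoHB KD level (edgeR adjusted p = 0.00511, 0.000179, 2.32e-08 and 2.91e-05). HMGCS1 and MVK did not differ beyond their spread, with log2 differences of 0.01 ± 0.08 and 0.01 ± 0.10 (SE). Without the 3 libraries that stood apart, FADS1 and ACACA were called lower in S100A16 KD cells (-0.24 and -0.17, edgeR adjusted p = 6.5e-05 and 0.0109), where all libraries gave 0.08 and 0.06 with no call. CYP51A1, IDI1 and SCD gained a call in that fit too. SCD was at -0.23 with all libraries (edgeR adjusted p = 0.471) and -0.53 without MagoHB KD replicate 2 (edgeR adjusted p = 0.00413).

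Between hnRNPM KD and MagoHB KD cells, 16 members were higher in hnRNPM KD cells and 7 lower, where 44.5% of all genes were called, 22.3% higher and 22.2% lower. With scaling by total counts alone 12 were higher and 11 lower. Among all genes called, 39.1% were then higher, against 50.2% with TMM. Scaling by total counts called 3986 of the 22382 genes tested higher and 6196 lower. MSMO1 was at 1.97, 2.22 and 1.79 RPKM in hnRNPM KD libraries, against 0.746, 0.429 and 0.531 RPKM in MagoHB KD libraries (log2 fold change 1.82 ± 0.16 SE, edgeR adjusted p = 3.98e-09). ABCA1 and HMGCS1 were next at 1.31 and 0.84 (edgeR adjusted p = 0.00488 and 6.7e-09). The lower members were led by HSD17B7, at 1.62, 1.39 and 1.39 RPKM in hnRNPM KD libraries, against 2.51, 3.43 and 2.67 RPKM in MagoHB KD libraries (-0.97, edgeR adjusted p = 6.61e-07). FADS1, at 58.1, 31.8 and 53.7 RPKM in MagoHB KD libraries, and INSIG1 followed at -0.93 and -0.70 (edgeR adjusted p = 0.000214 and 0.00146). For each of these 6 genes, picked for the size of their change, the groups did not overlap. For INSIG1 this was narrow, with hnRNPM KD replicates 1 and 2 at 2.36 RPKM and MagoHB KD replicate 2 at 2.37 RPKM. ABCA1 was narrowly apart too, with hnRNPM KD replicate 1 at 2.59 RPKM and MagoHB KD replicate 2 at 2.51 RPKM. The share of all genes without overlap was not counted.

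Other genes of the same pathways were counted from lists. Of 28 other sterol genes, 7 fell and 13 rose in S100A16 KD, 13 fell and 5 rose in hnRNPM KD and 16 fell and 4 rose in MagoHB KD cells, with medians of 0.15, -0.18 and -0.32 on the log2 scale. Over all genes tested, 24.8% fell and 27.6% rose in S100A16 KD, 23.8% fell and 25.4% rose in hnRNPM KD and 22.3% fell and 23.3% rose in MagoHB KD cells. In S100A16 KD cells LBR, another sterol C14 reductase, changed by -0.63. SCARB1, the receptor for high-density lipoprotein, was at 0.41 in S100A16 KD and -0.88 in hnRNPM KD cells. ERLIN1 and ERLIN2, membrane proteins that restrain SREBPs, fell by 0.85 and 1.18 in hnRNPM KD cells.

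Of 11 LXR receptors and targets, 4 fell and 3 rose in S100A16 KD, 6 fell and 2 rose in hnRNPM KD and 3 fell and 2 rose in MagoHB KD cells, beside the same all-gene shares of 24.8% and 27.6%, 23.8% and 25.4%, and 22.3% and 23.3%. ABCG1, a sterol exporter related to ABCA1, was at 0.85, 0.84 and 1.22 on the log2 scale in the 3 lines. NR1H3 and NR1H2, which encode the LXR receptors, were at -0.59 and -0.60 in hnRNPM KD and at -0.24 and -0.38 in MagoHB KD cells. RXRA, their partner, was at -0.49 in S100A16 KD cells.

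Of 32 other genes of fatty acid and glyceride synthesis that were tested, 14 fell and 12 rose in S100A16 KD, 18 fell and 7 rose in hnRNPM KD and 12 fell and 7 rose in MagoHB KD cells, where 24.8%, 23.8% and 22.3% of all genes fell and 27.6%, 25.4% and 23.3% rose. SCD5, a second desaturase, and LPIN2, a phosphatidate phosphatase, rose where SCD fell. SCD5 was at 1.35, 1.26 and 0.76 and LPIN2 at 0.80, 0.67 and 0.45 on the log2 scale in the S100A16, hnRNPM and MagoHB lines. ACSS2, which makes acetyl-CoA from acetate, and SLC25A1, the citrate carrier, were at -0.84 and -0.81 in S100A16 KD cells. ME1, which supplies NADPH, was at -1.38 in hnRNPM KD cells.

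Of 24 fatty acid oxidation genes, 8 fell and 10 rose in S100A16 KD, 7 fell and 3 rose in hnRNPM KD and 12 fell and 7 rose in MagoHB KD cells, with medians of 0.01, 0.00 and -0.13, where 24.8%, 23.8% and 22.3% of all genes fell and 27.6%, 25.4% and 23.3% rose. CPT1A, which brings fatty acids into mitochondria, was at 0.39 in S100A16 KD and -0.61 in hnRNPM KD cells. ACADM, a dehydrogenase of medium-length chains, was at -1.55 in MagoHB KD cells. Each value named in these 4 lists passed at an edgeR adjusted p under 0.05. None of the genes in these lists was called in the H2O2 comparisons or in the interaction.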

How the data were processed

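Poly(A) RNA of 18 A549 libraries was sequenced, 3 biological replicates in each of 6 groups, with RNA integrity checked before library construction, per the labels' protocols. The authors deposited raw read counts per gene and RPKM values for 44016 features. The submitters' processing notes name HISAT2 2.2.1, StringTie 2.1.4, DESeq2 1.32.0, quality and file tools and the build GRCh38. The sources used here give no annotation, counting program or use of strand. The deposited RPKM values equalled counts over exon length and library total for 100% of 531539 values above 0 (relative tolerance 0.001). Of counts from 1 to 19, 18.6 to 22.0% were odd per library, and halved counts were therefore also tested.

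Tests on the counts used edgeR 4.0.16 under R 4.3.3 with TMM scaling, filterByExpr over the 6 groups, 22382 genes tested, a robust quasi-likelihood fit on all 18 libraries with 1 mean a group, and Benjamini-Hochberg adjustment over all genes tested in each of 10 comparisons. A gene was called at an adjusted p under 0.05. The fold change is on the log2 scale, and its SE is the log2 fold change over the square root of F. WT libraries had TMM factors between 0.908 and 0.932, and KD libraries between 0.970 and 1.10. Levels are RPKM from counts and TMM-scaled library totals. The test was tried on simulated counts with 200 genes changed.

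Alternatives were DESeq2 1.42.0, limma voom (limma 3.58.1), RLE and total-count scaling, no filter on low counts, only the groups compared, the replicate number as a block, halved counts, leaving out the 3 libraries that stood apart, and leaving out each library in turn. Members, role lists, other pathway lists and marker lists were chosen with earlier results of these data known. Values in every library are given for SREBF1, SREBF2, INSIG1, HMGCS1, SQLE, DHCR7, FASN, SCD and ABCA1 and for the called members with the 3 largest changes in each direction. From other lists at most 3 called genes in each direction, those with the smallest adjusted p, were named. Some results are not reported here. Promoters came from RefSeq on GRCh38.p14.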

Additional observations from a re-analysis of the deposited data

How the results depend on the processing

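Over 27 alternatives and 10 comparisons, 111 of 9180 gene values of the members lost the call and 105 gained one with the same sign. Another 6 that were called in either fit changed sign. The other 8958 stayed on their side of the threshold, of which 165, called in neither fit, changed sign. The 9180 include the 3 comparisons that test H2O2, where no member had a call to lose, so the share of lost calls is low in part by construction. Called under every alternative were 28 of 29 members in S100A16 KD cells against WT, 27 of 30 under H2O2, 19 of 24 in hnRNPM KD and 20 of 27 in MagoHB KD cells, and 21 of 23, 21 of 24 and 17 of 23 in S100A16 KD against hnRNPM KD, S100A16 KD against MagoHB KD and hnRNPM KD against MagoHB KD cells. Leaving out each library in turn gave 29 to 30, 29 to 31, 20 to 27 and 24 to 28 calls against WT. Between the lines it gave 21 to 26, 23 to 27 and 20 to 26, and 0 in the 3 comparisons that test H2O2. These ranges include fits that left out a library outside the groups compared. Calls over all genes moved too. Without untreated WT replicate 1, 4985 genes were higher and 4832 lower in hnRNPM KD cells, against 5676 and 5323 with all libraries. With the replicate number as a block the counts were 29, 29, 24, 27, 22, 24 and 22, with 0 for H2O2 in either line or the interaction. Little sign of pairing by number was seen: the deviations of same-numbered libraries correlated at -0.18 to 0.24, and 1 of 27 correlations was over 0.1. With 3 libraries a group, and libraries that stood apart under different numbers, this check cannot exclude a shared culture or preparation.

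For H2O2 in WT cells, 2 members were called when only the groups compared were fitted and 1 without the 3 libraries that stood apart. For H2O2 in S100A16 KD cells 1 was called under each of these settings, and the interaction called 1, SREBF1, without the 3 libraries. These fits use fewer libraries to set the spread, and they called more of all genes. Without the 3 libraries, H2O2 gave 0.974% higher and 0.911% lower in WT cells and 1.33% and 0.295% in S100A16 KD cells. The interaction gave 0.42% and 0.389%. With only the groups compared, 292 of 22382 genes were higher and 243 lower in WT cells, and 487 and 317 in S100A16 KD cells. With total counts alone, PMVK in S100A16 KD cells against WT turned to 0.207 (edgeR adjusted p = 0.0198) and MBTPS1 in MagoHB KD cells to 0.046 (edgeR adjusted p = 0.472). Without the 3 libraries, ABCA1 turned to -0.33 in MagoHB KD cells against WT and to 0.338 in S100A16 KD against hnRNPM KD cells, and ACACA and FADS1 to -0.167 and -0.237 in S100A16 KD against MagoHB KD cells. That fit called 30 members in S100A16 KD against hnRNPM KD cells, where 25.6% of all genes were higher and 26.6% lower. It called 29 in S100A16 KD against MagoHB KD cells (24.8% and 24.3%) and 28 in hnRNPM KD against MagoHB KD cells (23.9% and 23.6%). With all libraries these counts were 23, 24 and 23. Leaving out 1 library also ended calls between the lines. In S100A16 KD against hnRNPM KD cells these were MVD and NSDHL, and in hnRNPM KD against MagoHB KD cells IDI1, ACACA, FASN, FDFT1, EBP and MBTPS1. The cause was not tested. With 3 libraries a group, members at under 1 RPKM such as TM7SF2 rest on few reads per library, and their errors are the widest among the sterol enzymes.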
